A study of Drosophila melanogaster with 5 samples.

Results

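The genes compared here are those that set tumors carrying either of 2 Sras mutants together with Ras overexpression apart from tumors with Ras overexpression alone, in the eye-antennal imaginal disc of Drosophila melanogaster, the larval epithelium that gives rise to the adult eye, antenna and head capsule. A gene was a member when its log2 level differed by at least 1, a 2-fold change, in the same direction in both Sras mutant arrays against the Ras array. By this rule 983 genes were members, of 7850 genes that were bright enough to be kept and of 11982 genes with a probe set naming exactly 1 gene. The 3 arrays of the comparison were Sras mutant 1 with Ras, Sras mutant 2 with Ras, and Ras. The 2 other arrays of the series, of scrib mutant tumors with Ras, which the design uses as a positive control, and of WT control discs from a line described as 79E control, are given only for orientation.

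All larvae were of the third instar and were raised at 25°C on standard medium. Tumor clones carried GFP through MARCM, a method that makes homozygous mutant cells which also express a transgene inside a mosaic animal, so a disc holds unmarked cells as well. Ras overexpression was shared by the 3 tumor arrays of the comparison, and the sources used here do not give the Ras allele, the driver, the lesions of Sras mutant 1 and Sras mutant 2, the number of discs per array or whether animals were pooled. Each group was 1 array, so there is no spread between replicates, no test was run and every difference below is between single arrays. The mutants are separate groups in the design and share the same Ras array, so agreement between them is not independent: a value that is off in the Ras array shifts both differences the same way. As a guide to scale, the Sras mutant arrays differed from each other with a standard deviation of 0.243 log2 units over the 7850 genes.

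As background, Ras is a small GTPase that carries signals from receptor tyrosine kinases to the MAPK cascade, and in disc clones its overexpression drives overgrowth that usually stays within the epithelium. Loss of further genes, classically of the polarity gene scrib, lets such clones become disorganised tumors in which JNK and JAK/STAT signalling are active and which delay the larva's metamorphosis through secreted peptides. Sras names a CAAX-box protease that trims the end of prenylated proteins such as Ras, though the sources do not state that the label refers to that gene. The series title links the Fanconi anemia pathway, a repair route for crosslinked DNA, to senescence driven by oncogenes.

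The genes named in the labels were read first. The Sras probe set gave log2 levels of 9.19 in Sras mutant 1 and 9.05 in Sras mutant 2, against 9.40 in Ras, with 9.65 in the scrib mutant and 9.56 in WT control, so it was lowest in the Sras mutants by differences of −0.21 and −0.35 from Ras. The scrib probe set read 11.56 in Sras mutant 1 and 11.51 in Sras mutant 2, against 10.76 in Ras, and it read 11.30 in the array labelled scrib mutant and 10.56 in WT control. Neither level checks a label, because the lesions are unknown and a mutant transcript can persist.

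The tissue label was then set against markers. The Sras mutants held the transcripts that define the eye disc: ey, a Pax6 selector gene of the eye, read 10.45 in Sras mutant 1 and 10.31 in Sras mutant 2, against 8.72 in Ras. The median level of 10 retinal determination genes was 10.35 in Sras mutant 1 and 10.18 in Sras mutant 2, against 9.29 in Ras. Markers of most other larval tissues went the other way. Of 126 kept genes on 9 lists of such markers, 62 were at least 2-fold lower in both Sras mutants. Only 1 was higher, the Runx factor gene lz, which also stands on the eye lists. By the same rule 8.96% of all genes kept were lower and 3.57% higher. A gene was kept on its brightest array, so a marker bright only in Ras or WT control could be counted. Markers dim in all arrays could not. The median level of 15 salivary gland genes was 6.63 in Sras mutant 1 and 8.39 in Sras mutant 2, against 13.49 in Ras, with 6.31 in the scrib mutant and 13.35 in WT control. The Ras array thus read like the WT control array for this tissue, and Sras mutant 1 read like the scrib mutant array. All 15 salivary gland genes fell in both mutants, and 5 of them in Sras mutant 1 and 4 in Sras mutant 2 lay below the filter value of 6.36, a level close to background, against 0 in Ras. Summed over the list on the linear scale, log2 levels were 11.24 and 12.87 in Sras mutant 1 and Sras mutant 2, against 17.39 in Ras. The trachea list was an exception, with 0 of 13 kept genes past 2-fold in either direction and a median level of 11.59 in Sras mutant 1 and 11.56 in Sras mutant 2, against 10.97 in Ras (median differences of 0.38 and 0.44, and of −0.20 and −0.16 under identity centring). In bulk samples such as these, fewer cells of a type and less RNA per cell cannot be told apart.

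**Figure D1:**
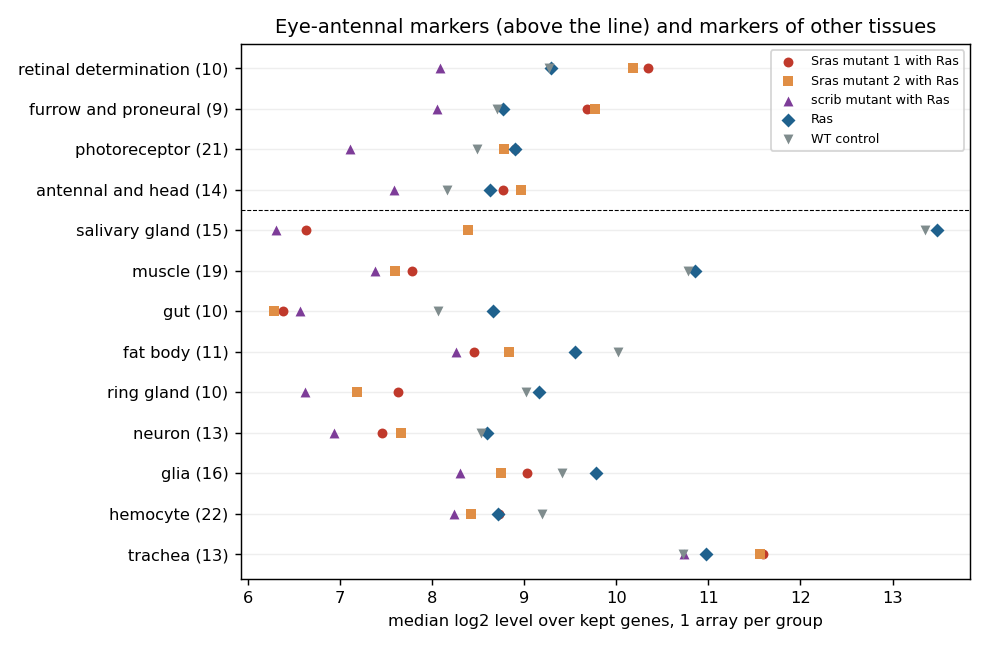
Median log2 level over the kept genes of each marker list (number in brackets), with 1 point for each of the 5 arrays. Lists above the dashed line mark the eye-antennal disc and those below it other tissues; the salivary gland, muscle, gut and ring gland points of the Sras mutants lie left of those of Ras and WT control, and the retinal determination points lie right of them.

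Both Sras mutants were at least 2-fold higher than Ras for 280 genes (3.57% of genes kept) and at least 2-fold lower for 703 genes (8.96%). Taken alone, Sras mutant 1 was higher for 317 genes (4.04%) and lower for 767 (9.77%), and Sras mutant 2 was higher for 389 (4.96%) and lower for 781 (9.95%). Sras mutant 1 alone passed 2-fold for 101 genes and Sras mutant 2 alone for 187, and 0 genes passed it in opposite directions. Counts for the lists below are to be read beside the shares of 3.57% higher and 8.96% lower. Several lists lie near them, such as photoreceptor genes with 9.52% lower and glutathione S-transferase genes with 10.3% lower. The median difference from Ras over all genes kept was 0.11 in Sras mutant 1 and 0.08 in Sras mutant 2. These numbers depend on the zero point. Identity centring sets each array's median over 22 genes, those of the retinal determination and the antennal and head lists, to the same value. These genes are not a neutral reference, and they include Antp, which is not an antennal gene. This centring moved the all-gene medians to −0.44 and −0.50 and gave 83 higher and 1261 lower genes. Of the counted genes 6.18% were thus higher, against 28.5% in the quantile-normalized values used throughout. Gene list medians between 0 and about 0.5 therefore change sign with that centring, and each one printed below is given with its value there. The cell cycle, Hippo, Notch, UDP-glycosyltransferase and insulin and TOR lists, whose medians are not printed, change sign too. The 3′ minus 5′ difference of control probe sets, a sign of RNA integrity, averaged 0.91 in Sras mutant 1 and 0.88 in Sras mutant 2, against 1.40 in Ras, and its part in the differences was not tested.

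The genes that rose and those that fell differed in size of change and in level. The 280 higher genes had median levels of 8.73 in Sras mutant 1 and 8.96 in Sras mutant 2, against 7.18 in Ras and 7.02 in WT control. By the smaller of a gene's differences from Ras, 40 of them passed 4-fold, 7 passed 8-fold and 3 passed 16-fold. The 703 lower genes had median levels of 6.68 in Sras mutant 1 and 6.60 in Sras mutant 2, against 8.86 in Ras and 9.01 in WT control, and 272 passed 4-fold, 131 passed 8-fold and 82 passed 16-fold. For 81 of the higher and 327 of the lower genes the dim side lay below the filter value, so their difference is a lower bound on the change and their order is not informative. The Ras array lay within 2-fold of WT control for 270 of the 280 higher genes, 638 of the 703 lower genes and 7688 of all 7850 genes. The lower genes were thus within 2-fold less often than all genes kept. Ras was at least 2-fold above WT control for 24 of them and at least 2-fold below it for 41. At the edge of the rule, Smyd4-1 counted as higher with 1.00 and 1.04, and CG10979 missed with a Sras mutant 1 difference of 0.998. On the lower side slf counted with −1.18 in Sras mutant 1 and −1.0003 in Sras mutant 2, and CG5506 missed with −1.55 in Sras mutant 1 and −0.9996 in Sras mutant 2.

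**Figure D2:**
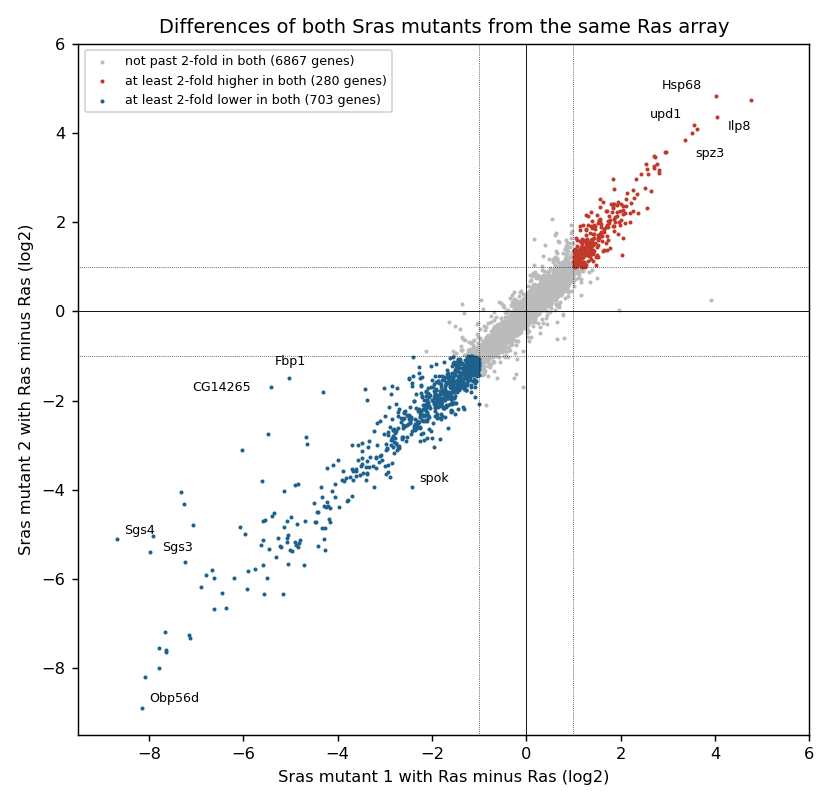
Log2 difference from the Ras array of each of the 7850 genes kept, in Sras mutant 1 (horizontal) and Sras mutant 2 (vertical); both axes subtract the same Ras array. The 280 genes higher in both and the 703 genes lower in both lie outside the dotted 2-fold lines, and glue genes such as Sgs3 and Sgs4 and the fat body gene Fbp1 lie above the diagonal because they were less reduced in Sras mutant 2.

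Secreted signals stood at the top of the named genes that rose. Ilp8, a relaxin-like peptide with which abnormal discs delay metamorphosis, read 12.26 in Sras mutant 1 and 12.57 in Sras mutant 2, against 8.21 in Ras, a difference of 4.05 and 4.36. It read 11.19 in the scrib mutant and 5.00 in WT control, so its level was already higher in Ras than in the control disc and was highest in the Sras mutants. The JAK/STAT ligand upd1 read 10.40 in Sras mutant 1 and 10.88 in Sras mutant 2, against 6.78 in Ras, with 8.93 in the scrib mutant and 6.73 in WT control. Its neighbour upd2, which encodes another ligand of the same receptor, read 8.25 and 8.89 in Sras mutant 1 and Sras mutant 2, against 5.69 in Ras, which is below the filter value and makes the differences of 2.56 and 3.20 lower bounds. For both ligands Ras was at the level of WT control and all 3 tumor arrays with a second lesion were above it. The gene spz3, of the family of Spätzle growth factors that bind Toll receptors, read 11.15 in Sras mutant 1 and 11.63 in Sras mutant 2, against 7.79 in Ras. Pvf2, a PDGF- and VEGF-like ligand named after its values were seen, differed by 1.18 and 1.63.

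Of 40 kept genes for secreted signals 5 rose and 2 fell, with medians of 0.45 and 0.48 that became −0.12 and −0.08 under identity centring. Those that fell were the insulin-like peptides Ilp2 (−1.90 and −2.35) and Ilp5 (−2.11 and −2.84), which are made by neurosecretory cells of the larval brain. The activin-like ligand gene daw read 7.25 in Sras mutant 1 and 8.44 in Sras mutant 2, against 8.76 in Ras, and 12.33 in the scrib mutant. The scrib array alone was high for this gene. Of 31 kept receptor genes 2 rose and 1 fell, with medians of 0.24 and 0.33 (−0.27 and −0.22 under identity centring). These counts were 6.45% higher and 3.23% lower, against 3.57% and 8.96% of all genes kept. Those that rose were dome (1.10 and 1.10), the receptor of the upd ligands, and ptc (1.31 and 1.27), the receptor and target of Hedgehog, and the one that fell was the receptor tyrosine kinase gene Alk (−1.95 and −1.78). Egfr lay at 0.91 and 0.95 and did not pass 2-fold.

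The JAK/STAT list, which holds the ligands and dome, counted 4 higher and 0 lower genes of 12, with medians of 0.53 and 0.32 that became 0.03 and −0.22 under identity centring. The zinc finger gene chinmo, which JAK/STAT signalling maintains in several fly tissues, read 11.46 in Sras mutant 1 and 11.25 in Sras mutant 2, against 9.51 in Ras. Negative regulators of the pathway did not pass 2-fold: Ptp61F, a phosphatase, lay at 0.51 and 0.65, Socs16D at 0.10 and 0.19, and Socs44A at −0.22 and −0.16. The transcription factor gene Stat92E lay at 0.20 and 0.15, and zfh1, a target in other tissues, at −0.54 and −0.85. The members of the list thus split between the ligands, dome and chinmo on the higher side and the remaining 8 genes, which stayed within 2-fold of Ras.

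The JNK list had 3 higher and 0 lower genes of 24, with medians of 0.28 and 0.33 (−0.21 and −0.20 under identity centring). They were Ets21C, an ETS transcription factor induced by stress signalling, which read 8.26 in Sras mutant 1 and 9.03 in Sras mutant 2, against 5.54 in Ras. Gadd45, a stress response gene, read 9.65 in Sras mutant 1 and 10.52 in Sras mutant 2, against 7.78 in Ras. The serine protease homologue gene scaf, a target of JNK, read 11.91 in Sras mutant 1 and 12.53 in Sras mutant 2, against 10.12 in Ras. All 3 were further from Ras in Sras mutant 2 than in Sras mutant 1, with mutant 1 minus mutant 2 differences of −0.78 for Ets21C, −0.87 for Gadd45 and −0.62 for scaf. Another target of JNK, puc, did not pass 2-fold and lay at 0.06 and 0.42. Nor did the transcription factor genes kay (0.34 and 0.62) and Jra (0.26 and 0.42). The kinases of the cascade stayed near Ras, with hep at −0.20 and −0.18 and bsk at −0.19 and −0.26. The ligand gene egr lay at −0.69 and −0.76. Core and feedback genes of the EGFR and MAPK cascade, shared by all tumors with Ras, had 0 higher and 1 lower gene of 24, Ets65A (−1.80 and −2.11), with medians of 0.25 and 0.19 (−0.25 and −0.36 under identity centring).

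Transcription factors linked to stress counted 4 higher and 0 lower genes of 25, with medians of 0.44 and 0.50 (−0.14 and −0.11 under identity centring). Besides Ets21C these were dl, an NF-kappaB factor of the Toll pathway (1.33 and 1.5015), p53 (1.17 and 1.42) and, named after its values were seen, CrebB (1.04 and 1.03). Among genes that set developmental time, 4 of 15 rose and 0 fell, with medians of 0.05 and 0.31 (−0.54 and −0.42 under identity centring): chinmo, the RNA-binding protein gene Imp (1.12 and 1.19), which accompanies chinmo in young neuroblasts, the nuclear receptor gene ftz-f1 (1.68 and 1.54) and the ecdysone receptor coactivator gene tai (1.17 and 1.01). The ecdysone receptor gene EcR itself lay at −0.48 and −0.55, and Eip93F, a late ecdysone-response factor, read 6.42 in Sras mutant 1 and 6.46 in Sras mutant 2, against 7.33 in Ras.

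**Figure D3:**
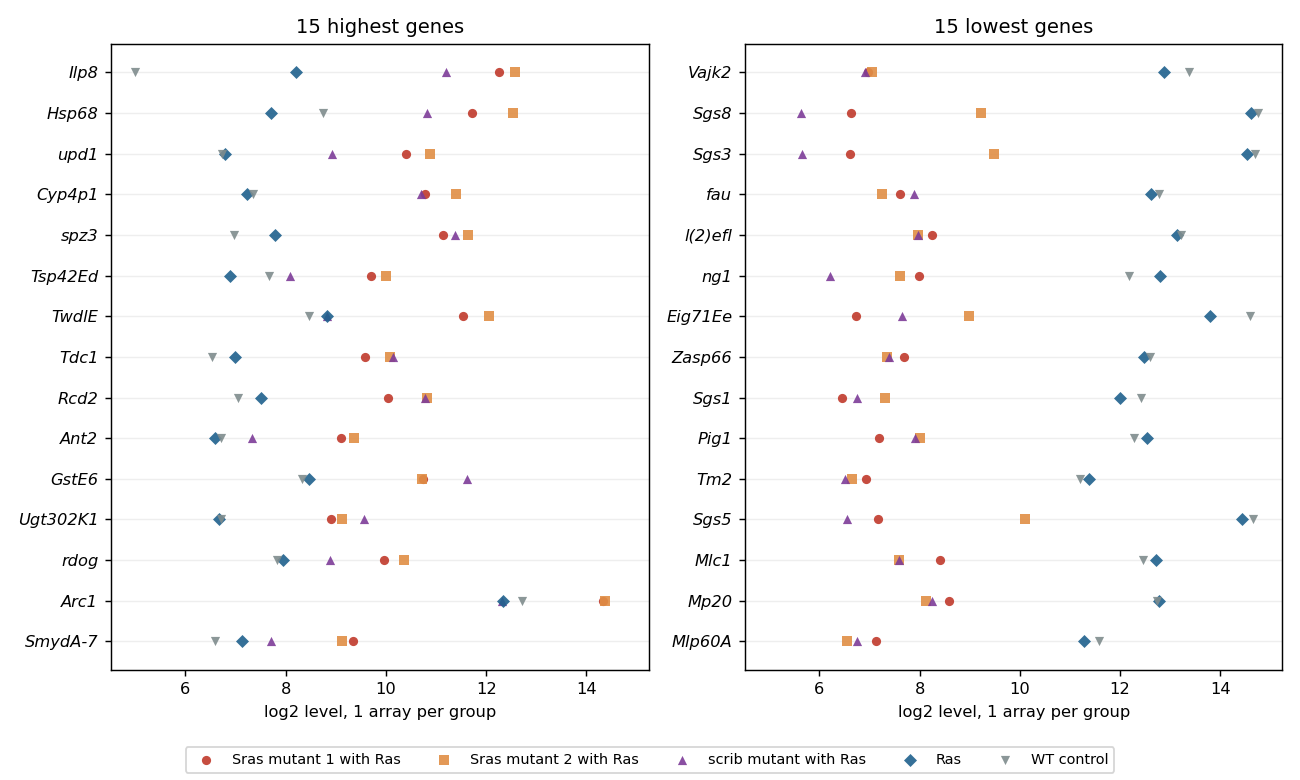
Log2 level in each of the 5 arrays of the 15 highest and 15 lowest genes, ranked by the smaller of both differences from Ras among named genes above the filter value in the 3 arrays compared. For the genes on the left both Sras mutants lie right of Ras, and for the genes on the right they lie left of Ras and WT control.

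Chaperone genes held large differences in both directions. Hsp68, an inducible Hsp70-family chaperone, read 11.73 in Sras mutant 1 and 12.54 in Sras mutant 2, against 7.71 in Ras, with 10.83 in the scrib mutant and 8.75 in WT control. The small heat shock protein gene Hsp26 (1.70 and 2.24) and the Hsp40 gene DnaJ-1 (1.18 and 1.39) also rose. In contrast l(2)efl, a small heat shock protein gene of the alpha-crystallin family, read 8.24 in Sras mutant 1 and 7.97 in Sras mutant 2, against 13.13 in Ras and 13.22 in WT control. Constitutive chaperones stayed near Ras, with Hsc70-4 at 0.04 and 0.10 and the endoplasmic reticulum chaperone Hsc70-3 at −0.09 and 0.01. Of the 18 kept members 3 rose and 1 fell, 15 lay above Ras in both mutants and 1 below it, with medians of 0.33 and 0.35 (−0.18 and −0.21 under identity centring). The unfolded protein response list of the endoplasmic reticulum had 0 genes past 2-fold of 22, with medians of −0.05 and 0.04 (−0.08 and −0.01 in the values as deposited and −0.64 and −0.59 under identity centring), and its highest member was the kinase gene PEK in Sras mutant 1 (0.59, with 0.71 in Sras mutant 2) and the nucleotide exchange factor gene Sil1 in Sras mutant 2 (0.76, with 0.42 in Sras mutant 1).

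Detoxification families went in both directions. Of 34 kept cytochrome P450 genes 7 rose and 7 fell, with medians of 0.09 and 0.08 (−0.54 and −0.53 under identity centring). Cyp4p1 read 10.78 in Sras mutant 1 and 11.41 in Sras mutant 2, against 7.23 in Ras and 7.35 in WT control. Cyp6a20, Cyp4p3 and Cyp28d2 rose by at least 2.27 from levels of 4.74, 5.28 and 5.52 in Ras, below the filter value. Another that rose, and was picked out after its values were seen, was Cyp18a1 (1.30 and 2.13), whose enzyme inactivates ecdysone. Among those that fell were Cyp4d1 (−2.22 and −1.68), Cyp12c1 (−1.84 and −1.78), Cyp28d1 (−1.80 and −1.69) and Cyp12e1 (−1.58 and −2.02). Cyp4d1 in Sras mutant 1 and Cyp12c1 in both mutants were below the filter value, where differences are lower bounds in size and cannot be ranked. Of 29 kept glutathione S-transferase genes 3 rose and 3 fell. GstE6 read 10.73 in Sras mutant 1 and 10.72 in Sras mutant 2, against 8.47 in Ras and 11.61 in the scrib mutant, and GstE14, which acts in ecdysone synthesis, fell (−1.83 and −2.86). Of 10 kept UDP-glycosyltransferase genes 2 rose, Ugt302K1 (2.23 and 2.44) and Ugt302C1 (1.91 and 2.24), and 0 fell.

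Matrix and integrin genes counted 4 higher and 0 lower of 34, with medians of 0.22 and 0.32 (−0.31 and −0.27 under identity centring). The integrin alpha subunit gene ItgaPS4 read 7.97 in Sras mutant 1 and 8.69 in Sras mutant 2, against 5.23 in Ras and 4.23 in the scrib mutant, so it was above the filter value in the Sras mutants alone of the 5 arrays. The integrin ligand gene Tig read 10.05 in Sras mutant 1 and 10.44 in Sras mutant 2, against 8.29 in Ras and 11.32 in the scrib mutant. The laminin alpha gene wb (1.38 and 1.60) and the matrix metalloprotease gene Mmp2 (1.08 and 1.06) rose too, while both collagen IV genes of the basement membrane, vkg (−0.33 and −0.67) and Col4a1 (−0.48 and −0.72), and the protease inhibitor gene Timp (−0.86 and −0.59) lay below Ras without passing 2-fold. For Mmp2 the scrib mutant read 8.62, below the 9.96 of Ras, against 11.04 and 11.02 in Sras mutant 1 and Sras mutant 2. None of 29 genes for epithelial polarity and junctions and none of 16 for actin and cell shape passed 2-fold in both mutants. The polarity list had medians of 0.39 and 0.40 (−0.15 and −0.18 under identity centring), led by the E-cadherin gene shg (0.83 and 0.87).

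Of 28 kept genes of DNA damage signalling and repair 7 rose and 0 fell. All 28 had differences above 0 in both mutants, against 4401 of all 7850 genes, with medians of 0.55 and 0.45 that became −0.00 and −0.19 under identity centring. The end-joining proteins Ku80 and Irbp (Ku70) form the ring that binds broken DNA ends. Ku80 read 9.85 in Sras mutant 1 and 10.06 in Sras mutant 2, against 8.22 in Ras, and Irbp read 9.25 in Sras mutant 1 and 9.44 in Sras mutant 2, against 7.73 in Ras. All members of the complex that senses breaks and starts their resection rose, nbs by 1.19 and 1.25 and, picked out after their values were seen, mre11 by 1.09 and 1.19 and rad50 by 1.13 and 1.15. The scrib mutant read 9.72 for Ku80, 9.54 for Irbp and 9.31 for nbs, within 1 log2 unit of both Sras mutants in each case. In the list of Fanconi and crosslink repair genes 2 of 16 rose and 0 fell, the translesion polymerase gene PolZ1 and the end-joining polymerase gene PolQ, which read 7.81 in Sras mutant 1 and 7.71 in Sras mutant 2, against 6.65 in Ras. That list's medians of 0.53 and 0.42 became −0.01 and −0.22 under identity centring, and the central pair FANCI and Fancd2 lay at 1.00 and 0.85 and at 0.99 and 0.81, below the rule in at least 1 mutant.

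Most growth genes lay above Ras by less than 2-fold, a direction that identity centring removed or turned. DNA replication genes had 2 higher and 0 lower of 36, the ribonucleotide reductase gene RnrL (12.16 and 12.18 in Sras mutant 1 and Sras mutant 2, against 10.96 in Ras) and RPA1 (12.54 and 12.56, against 11.49 in Ras), which coats single-stranded DNA, and 34 of the 36 lay above 0 in both. The list's medians were 0.50 and 0.42 (−0.03 and −0.20 under identity centring). The 2 higher genes were 5.56% of the list, against 3.57% of all genes kept. Mitosis genes (29) and ribosome biogenesis genes (29) had none past 2-fold in both mutants, with medians of 0.43 and 0.28 (−0.07 and −0.26 under identity centring) and of 0.55 and 0.47 (0.02 and −0.07). Of 19 cell cycle genes 1 rose, trbl (1.05 and 1.66), a pseudokinase gene that restrains the mitotic phosphatase String, and fzr, an activator of the anaphase-promoting complex in cells leaving the cycle, lay at −0.59 and −0.71. Of 12 apoptosis genes 2 rose and 1 fell, with medians of 0.07 and 0.08 (−0.41 and −0.44 under identity centring). The p53 gene and Corp (1.07 and 1.60), an inhibitor of p53, rose, and the cell death inducer skl read 7.44 in Sras mutant 1 and 7.01 in Sras mutant 2, against 8.76 in Ras.

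Eye selector genes rose in part. Of 10 retinal determination genes 5 rose and 0 fell, with medians of 1.14 and 0.99, which were 0.62 and 0.44 under identity centring, for which these genes were among those used, and above 0 in each other scaling tried. Besides ey, they were the second Pax6 gene toy (1.18 and 1.19), eyg (1.35 and 1.48), and the homeobox genes Optix (1.37 and 1.37) and so (1.38 and 1.17). Downstream partners were closer to Ras, with eya at 1.11 and 0.81 and dac at 0.54 and 0.21. For so the scrib mutant read 6.59, near background, against 10.24 in Sras mutant 1, 10.04 in Sras mutant 2 and 8.86 in Ras. Among 9 furrow and proneural genes 2 rose, the proneural gene ato, which selects the founding photoreceptor, and lz, and sens, which acts after ato, lay at −0.27 and −0.32. Their medians were 0.86 and 0.66, and 0.32 and −0.04 under identity centring. Of 21 photoreceptor genes 2 rose, lz and the membrane protein gene chp (1.26 and 1.04), and 2 fell, pros (−1.41 and −1.51) and the neuronal RNA-binding protein gene fne (−2.27 and −2.62), with medians of 0.27 and 0.10 (−0.26 and −0.46 under identity centring). The neuron marker list shares fne, and its values stand below.

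Patterning genes of the rest of the disc moved in part. The antennal selector gene ss read 8.47 in Sras mutant 1 and 8.67 in Sras mutant 2, against 6.77 in Ras, and the head gap gene ems rose by 1.08 and 1.24, while Antp, which specifies the thorax and is not an antennal gene, fell to 4.26 and 4.46 in Sras mutant 1 and Sras mutant 2, against 7.74 in Ras. A further Hox gene, Scr, read 7.51 and 8.41 in Sras mutant 1 and Sras mutant 2, against 9.78 in Ras. The remaining kept Hox gene, Dfd, lay above Ras, with 8.93 and 9.06 in Sras mutant 1 and Sras mutant 2, against 8.02. Its differences of 0.91 and 1.04 passed 2-fold in Sras mutant 2 only. The antennal and head list of 14 had medians of 0.28 and 0.20 (−0.23 and −0.34 under identity centring). Of 18 Wingless and Dpp targets 2 rose, the T-box gene Doc3 (1.29 and 1.56) and the wing selector gene vg (1.13 and 1.14), and 0 fell, with medians of 0.47 and 0.55 (−0.02 and −0.01). The growth factor gene dpp read 9.77 in Sras mutant 1 and 9.92 in Sras mutant 2, against 8.77 in Ras. Of 17 Hippo pathway genes and targets 1 rose, kibra (7.67 and 7.89 in Sras mutant 1 and Sras mutant 2, against 6.33 in Ras, just under the filter value), and none of 18 Notch genes passed 2-fold in both.

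**Figure D4:**
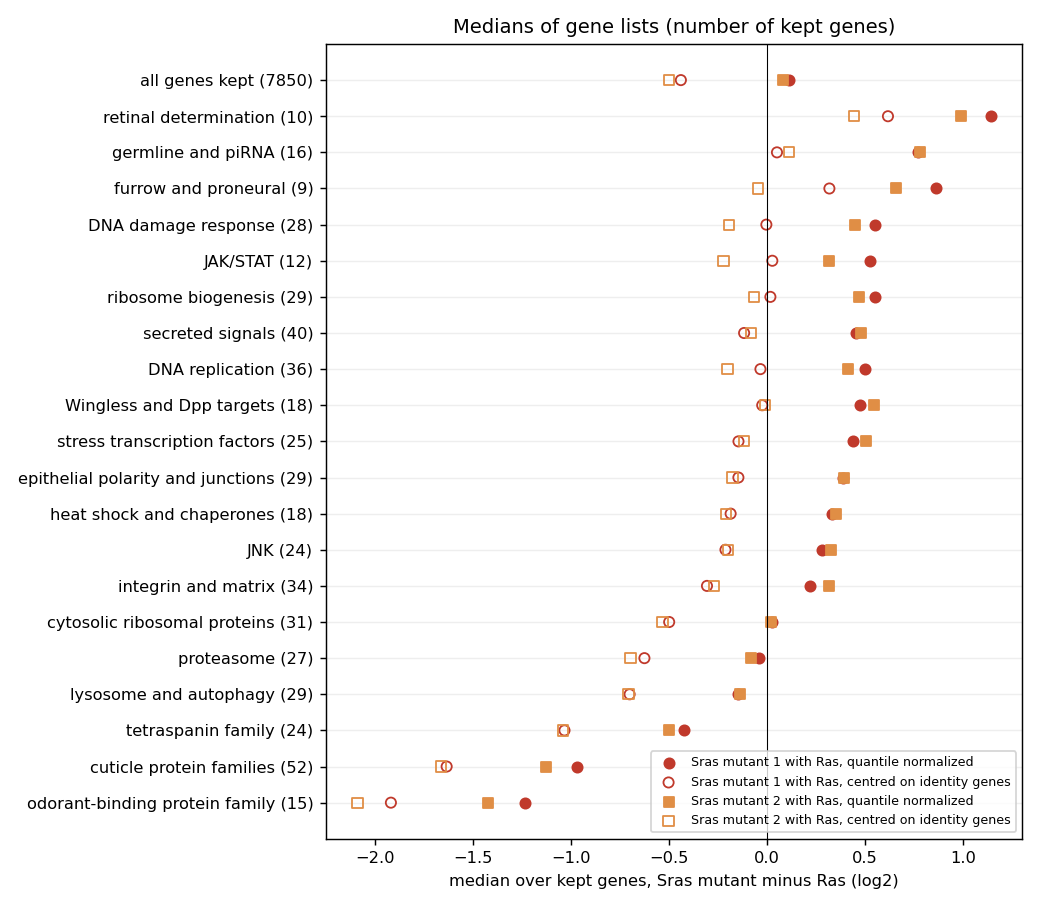
Median log2 difference from Ras over the kept genes of 20 lists and of all genes kept, with filled points for the quantile-normalized values and open points under identity centring (22 genes). The retinal determination list stays right of 0 in both settings, as does the germline and piRNA list. Cuticle, odorant-binding, tetraspanin and lysosome lists stay left of 0. Some genes of the germline, cuticle and odorant-binding lists were kept only through the arrays where they are higher. The lists between, all genes kept among them (0.11 and 0.08, against −0.44 and −0.50), lie left of 0 in at least 1 mutant under identity centring.

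Some genes that rose belong to programmes of other organs. Genes of the germline and of the piRNA pathway, which silences transposons in gonads, were kept for 16 of 27 measured genes. Of the 16, 4 lay below the filter value in Ras and 5 in WT control and were kept only through other arrays, so counts and medians over the kept genes do not measure the list. The Tudor-domain helicase gene spn-E read 8.77 in Sras mutant 1 and 8.99 in Sras mutant 2, against 7.01 in Ras, and 8.81 in the scrib mutant. The gene del, whose product marks piRNA clusters with Rhino, read 9.11 in Sras mutant 1 and 9.30 in Sras mutant 2, against 7.46 in Ras and 9.89 in the scrib mutant. For spn-E and del all 3 tumor arrays with a second lesion lay above both Ras and WT control. The translational regulator gene bol (1.43 and 1.74), the piRNA gene krimp (1.27 and 1.72, from 5.54 in Ras) and, picked out after its values were seen, vret (1.19 and 1.04) rose as well, and tud lay at 0.25 and 0.43. The angiotensin-converting enzyme homologue gene Ance, placed in the list for its role in the testis, lay at −0.64 and −0.74.

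Some genes of cilia and of chemosensory neurons rose too. Of 12 kept genes for axonemes and intraflagellar transport 3 rose and 0 fell, with medians of 0.49 and 0.39 (−0.10 and −0.17 under identity centring). BBS8, part of the complex that sorts ciliary cargo, read 8.05 in Sras mutant 1 and 8.04 in Sras mutant 2, against 5.84 in Ras, while Tektin-C, an axonemal filament gene, was near background in both Sras mutants and Ras at 4.24, 4.44 and 4.48 and read 8.68 in the scrib mutant. The transport genes IFT54 (1.54 and 1.65) and Oseg1 (1.29 and 1.33) were the others that rose. Of 165 measured chemoreceptor genes 7 were kept, and 3 of these rose, Ir40a, Gr2a and Ir68a, each from a level below the filter value in Ras (4.74, 5.08 and 5.40) to no more than 7.20 in the Sras mutants. A gene this dim could pass the filter only through an array in which it was high, so these counts are no measure of the families.

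Further genes at the top belong to other classes. By the smaller of its differences from Ras, the gene furthest above Ras, picked out after its values were seen, was CG32625, known here only by its number, which read 11.85 in Sras mutant 1 and 11.83 in Sras mutant 2, against 7.09 in Ras, 8.71 in the scrib mutant and 6.51 in WT control. Tdc1, the non-neuronal tyrosine decarboxylase, read 9.58 in Sras mutant 1 and 10.07 in Sras mutant 2, against 6.996 in Ras and 10.14 in the scrib mutant. Arc1, a gene of retrotransposon descent whose product forms capsids, was bright in every array and read 14.34 in Sras mutant 1 and 14.38 in Sras mutant 2, against 12.34 in Ras, 12.31 in the scrib mutant and 12.72 in WT control. The Sras mutants were the highest of the 5 arrays for Arc1, and Ras lay within 2-fold of the scrib mutant and WT control. The same held for TwdlE, a Tweedle cuticle protein gene, which read 11.53 in Sras mutant 1 and 12.05 in Sras mutant 2, against 8.82 in Ras, 8.83 in the scrib mutant and 8.47 in WT control. Tsp42Ed, a tetraspanin, rose by 2.81 and 3.10, Ant2, a mitochondrial nucleotide carrier, by 2.51 and 2.77, Rcd2 by 2.53 and 3.31, rdog by 2.01 and 2.40, and the SET and MYND domain gene SmydA-7 by 2.20 and 2.00.

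The genes that fell were led by products of differentiated larval tissues. Sgs3, which encodes a glue protein with which the salivary gland fixes the pupa, read 6.61 in Sras mutant 1 and 9.49 in Sras mutant 2, against 14.53 in Ras and 14.70 in WT control. Sgs8 read 6.63 in Sras mutant 1 and 9.22 in Sras mutant 2, against 14.61 in Ras. Sgs7 was at the top of the scale in Ras and WT control (14.81 in each), and read 7.49 in Sras mutant 1 and 10.75 in Sras mutant 2. The glue genes were thus far lower than Ras in both mutants and nearer to Ras in Sras mutant 2. The salivary gland transcription factor genes fkh (−1.90 and −1.88) and sage (−2.73 and −2.35) fell too. In the mutants fkh read 6.14 and 6.16, below the filter value, so its difference is a lower bound in size. Other salivary gland products in this class were Eig71Ee, an ecdysone-induced gene (−7.06 and −4.80), the new glue gene ng1 (−4.82 and −5.19) and Pig1 (−5.34 and −4.53).

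Muscle structural genes fell by similar amounts in both mutants. Of 19 kept muscle genes 14 fell and 0 rose, with medians of −3.39 and −3.59. Mlc1, a myosin light chain, read 8.41 in Sras mutant 1 and 7.59 in Sras mutant 2, against 12.71 in Ras. Tm2, a tropomyosin, read 6.93 in Sras mutant 1 and 6.64 in Sras mutant 2, against 11.38 in Ras, and Zasp66, a protein of the Z-disc, read 7.68 in Sras mutant 1 and 7.35 in Sras mutant 2, against 12.47 in Ras. Both mutants were low and Ras was at the level of WT control in each case, as for Mp20 (−4.19 and −4.66) and Mlp60A (−4.16 and −4.72). The summed muscle level was 13.63 in Sras mutant 1 and 13.64 in Sras mutant 2, against 15.38 in Ras and 15.36 in WT control. The members above Ras in both mutants did not pass 2-fold, with the titin gene sls at 0.73 and 0.85, Msp300 at 0.65 and 0.85, the myosin phosphatase gene flw at 0.32 and 0.28 and Zasp52 at 0.07 and 0.33.

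Gut, fat body and endocrine markers fell in part. Of 10 kept gut genes, of 23 measured, 7 fell and 0 rose. Among those that fell were the proteases yip7 (−5.09 and −4.70), Jon65Aiii (−4.89 and −5.24) and Jon65Aiv (−3.33 and −3.27). Of the 10, 5 lay below the filter value in each Sras mutant, against 1 in Ras. Such genes were kept only through other arrays, so these counts do not measure the list. Of 11 fat body genes 7 fell and 0 rose, with medians of −1.61 and −1.18. The larval serum protein gene Lsp2 read 11.04 in Sras mutant 1 and 12.04 in Sras mutant 2, against 13.90 in Ras, and the lipid carrier gene apolpp read 10.02 in Sras mutant 1 and 10.20 in Sras mutant 2, against 12.68 in Ras. Pepck1, a gluconeogenic enzyme on the same list, lay at 0.62 and 1.36 and read 14.06 in the scrib mutant. Of 10 ring gland genes 6 fell and 0 rose, with medians of −1.17 and −1.82. Another 2 lay above Ras in both mutants, by no more than 0.29 in Sras mutant 1 and 0.37 in Sras mutant 2. In each Sras mutant 2 of the 10 were below the filter value, against 0 in Ras. Those that fell hold enzymes of ecdysone synthesis: spok read 8.85 in Sras mutant 1 and 7.34 in Sras mutant 2, against 11.28 in Ras, and sro (−2.01 and −2.67), nvd (−1.82 and −2.40) and sad (−1.48 and −1.57) fell too. The juvenile hormone enzyme gene jhamt (−1.33 and −2.19) and the peptide hormone gene Akh (−1.01 and −2.07) are made in other cells of that gland.

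Neural and glial genes fell less. Of 13 neuron markers 6 fell and 0 rose, with medians of −0.89 and −1.07. Gad1, which makes the transmitter GABA, read 7.27 in Sras mutant 1 and 7.05 in Sras mutant 2, against 10.03 in Ras, and the cholinergic genes VAChT (−2.19 and −2.32) and ChAT (−2.04 and −2.17) fell together. The pan-neuronal gene elav, also expressed in photoreceptors, lay at −0.81 and −0.73, and futsch, a microtubule protein of neurons and photoreceptors, at 0.56 and 0.43. Of 16 glia markers 5 fell and 0 rose, with medians of −0.41 and −0.65, led by Gs2, the glutamine synthetase gene (8.44 in Sras mutant 1 and 8.01 in Sras mutant 2, against 12.41 in Ras), and alrm, an astrocyte gene (−1.78 and −2.34). On the same list repo lay at −0.53 and −0.84 and did not pass 2-fold. Of the 16, 10 lay below Ras in both mutants and 4 above it. Those above were Gli (0.61 and 0.64), loco (0.53 and 0.62), moody (0.39 and 0.75) and Ntan1 (0.28 and 0.38). Hemocyte markers counted 1 higher (lz) and 3 lower of 22, and 0 of 13 trachea markers passed 2-fold in both. The hemocyte shares were 4.55% higher and 13.6% lower, against 3.57% and 8.96% of all genes kept. Summed levels in Sras mutant 1 and Sras mutant 2 were 10.05 and 10.05 for the gut list, against 13.16 in Ras, 13.08 and 14.05 for fat body, against 15.41, 11.83 and 11.41 for ring gland, against 13.06, and 12.13 and 12.01 for neuron, against 13.37. The part of these tissues in the other differences was not tested.

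Families of secreted and barrier proteins made up a further block. Of 52 kept cuticle protein genes, of 109 measured, 24 fell and 4 rose, with medians of −0.97 and −1.13. Of the 52, 20 lay below the filter value in Sras mutant 1 and 21 in Sras mutant 2, against 9 in Ras. Such genes were kept only through other arrays, so these counts and medians do not measure the family. Vajk2 read 6.98 in Sras mutant 1 and 7.05 in Sras mutant 2, against 12.87 in Ras and 13.38 in WT control, and Lcp9 read 5.11 in Sras mutant 1 and 4.89 in Sras mutant 2, against 12.90 in Ras. TwdlE, Cpr66D (1.99 and 2.26), Cpr76Bc (1.96 and 2.01) and Lcp65Af (2.03 and 1.27) went against the rest of the family. Of 15 kept odorant-binding protein genes, of 47 measured, 10 fell and 0 rose, with medians of −1.23 and −1.42. The same limit holds for them, with 6 below the filter value in Sras mutant 1 and 7 in Sras mutant 2, against 4 in Ras. Obp56d read 6.56 in Sras mutant 1 and 5.82 in Sras mutant 2, against 14.72 in Ras and 14.79 in WT control, and Obp99b, brighter in the mutants, read 11.10 and 11.75 in Sras mutant 1 and Sras mutant 2, against 14.10 in Ras. Of 24 kept tetraspanin genes 6 fell and 1 rose (medians −0.42 and −0.50), and Tsp42Ed, the 1 that rose, lies in the same gene group by name as Tsp42Eh, which fell (−2.41 and −1.68).

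**Figure D5:**
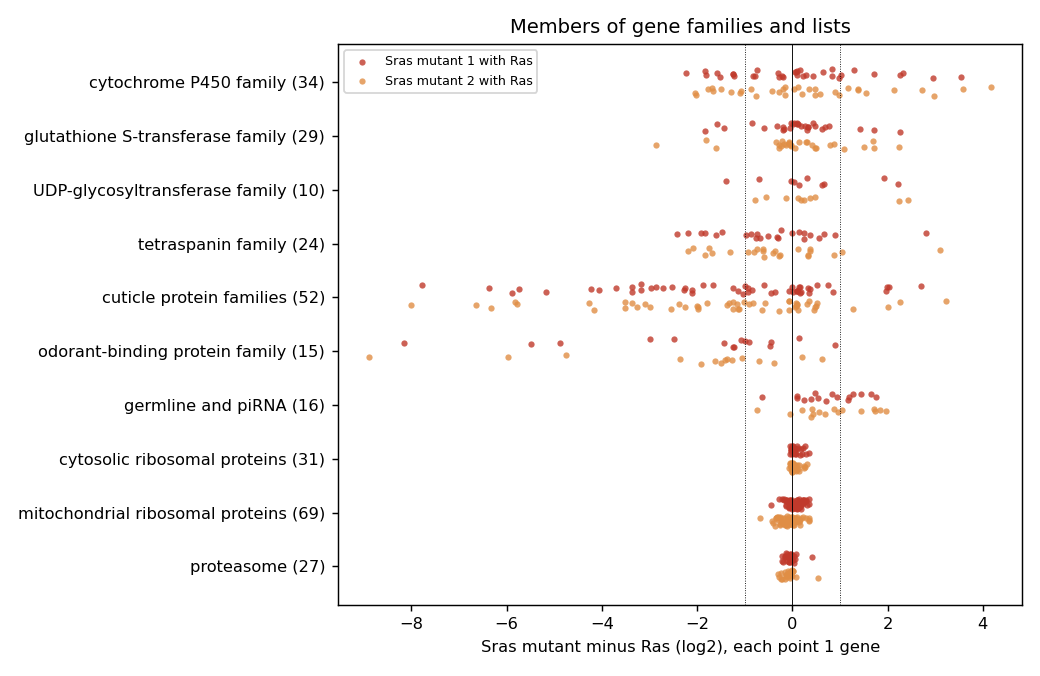
Log2 difference from Ras of each kept gene of 10 families or lists (number in brackets), with Sras mutant 1 above and Sras mutant 2 below in each row and dotted lines at 2-fold. Cuticle and odorant-binding protein genes spread far to the left, cytochrome P450 genes to both sides, and ribosomal protein and proteasome genes stay within 2-fold.

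Immune and lysosomal genes included further members that fell. Of 10 kept antimicrobial peptide genes, of 15 measured, 3 fell and 0 rose, with medians of −0.85 and −0.61. Those that fell were Listericin (−5.05 and −5.02), IM33 (−3.09 and −3.25) and Drsl5 (−2.44 and −2.76). Of the 10, 7 lay below the filter value in Sras mutant 1 and 5 in Sras mutant 2, against 3 in Ras. Such genes were kept only through other arrays, so these counts and medians do not measure the list. The recognition protein gene PGRP-SB2 fell to 5.49 and 5.39 in Sras mutant 1 and Sras mutant 2, against 10.56 in Ras. Imaginal disc growth factor genes Idgf1, Idgf2 and Idgf3, which encode chitinase-like secreted proteins, fell, Idgf1 by differences of −2.51 and −2.53, Idgf2 of −1.60 and −1.94 and Idgf3 of −2.35 and −2.52. Of 29 kept lysosome and autophagy genes 3 fell and 0 rose, with medians of −0.15 and −0.14. The 3 were 10.3% of the list, near the 8.96% of all genes kept that fell. They were the sterol carrier genes Npc2b (−3.52 and −3.68) and Npc2a (−1.16 and −1.38) and the mannosidase gene LManII (−1.11 and −1.51). Gal, a beta-galactosidase gene, read 7.54 in Sras mutant 1 and 7.92 in Sras mutant 2, against 8.68 in Ras and 9.74 in WT control, and its difference of −1.14 and −0.76 passed 2-fold in Sras mutant 1 only. The autophagy receptor gene ref(2)P lay at 0.64 and 1.02. The metallothionein gene MtnA fell to 11.27 and 10.56 in Sras mutant 1 and Sras mutant 2, against 13.44 in Ras.

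Few genes of housekeeping complexes passed 2-fold. None of 31 cytosolic ribosomal protein genes, 69 mitochondrial ribosomal protein genes, 27 proteasome genes and 53 respiratory chain genes passed 2-fold in both mutants, and their medians lay between −0.13 and 0.06 (between −0.72 and −0.44 under identity centring). The ATP synthase gene ATPsynepsilonL passed 2-fold in Sras mutant 1 alone (1.08 and 0.98). Of 17 kept genes of the V-ATPase, a proton pump, 1 fell, VhaM9.7-a (−1.77 and −1.95), and 15 lay below Ras in both mutants, with medians of −0.36 and −0.31. Ranked by the sum of both differences, the cytosolic ribosomal protein genes ran from RpL34a (0.34 and 0.27) down to RpS28b (−0.05 and −0.06). Glycolysis genes had none past 2-fold of 16, with medians of −0.23 and 0.06 (−0.73 and −0.57), although Tret1-1, a trehalose transporter gene, lay at −1.37 and −0.57. Of 24 lipid metabolism genes 1 rose, the fatty acid synthase gene FASN3 (6.28 in Sras mutant 1 and 7.24 in Sras mutant 2, against 4.72 in Ras), and 5 fell, among them bond (−2.81 and −2.94), an elongase gene. Of 18 kept genes of the insulin and TOR list 0 rose and 2 fell, the amino acid transporter genes sbm (−1.94 and −2.17) and slif (−1.11 and −1.22), the second of which was below the filter value in Ras too (6.02). Other amino acid transporter genes did not pass 2-fold, with JhI-21 at 0.30 and 0.61, mnd at −0.34 and −0.07 and path at −0.41 and −0.12. The insulin antagonist gene ImpL2 read 12.55 in Sras mutant 1 and 13.15 in Sras mutant 2, against 11.71 in Ras.

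The mutants were then compared with each other within the members. Sras mutant 1 was at least 2-fold above Sras mutant 2 for 14 of all genes kept (0.178%) and at least 2-fold below it for 39 (0.497%). Among the 280 higher genes 217 were further from Ras in Sras mutant 2 and 63 in Sras mutant 1, with a median mutant 1 minus mutant 2 difference of −0.17, and 1 gene was 2-fold apart. Among the 703 lower genes 31 were 2-fold apart, 25 of them higher in Sras mutant 2, while 429 were further from Ras in Sras mutant 2 and 273 in Sras mutant 1. The 25 were led by CG14265 (8.24 in Sras mutant 1, 11.95 in Sras mutant 2 and 13.65 in Ras), Sgs4 (5.39, 8.97 and 14.08 in the same arrays) and Fbp1, a fat body storage protein receptor (7.50, 11.03 and 12.53). The fat body genes Fbp2 (−3.43 and −1.74) and Lsp2 (−2.86 and −1.86) were also less reduced in Sras mutant 2. Other genes of these tissues went the other way, with ng1 at −4.82 and −5.19, ng2 at −4.27 and −5.36, and the fat body gene Apoltp at −1.02 and −1.18. So did genes of the ring gland, with spok at 8.85 and Akh at 9.67 in Sras mutant 1 against 7.34 and 8.61 in Sras mutant 2, as did the cuticle gene Lcp65Ac (7.01 in Sras mutant 1 and 5.84 in Sras mutant 2).

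Members also lay side by side on the chromosomes, by the order of genes in the Release 6 annotation and among the 7828 kept genes placed there. Of 701 placed genes that fell, 284 (40.5%) had a neighbour that fell as well, in 111 runs of 2 or more genes, 36 of them of 3 or more. Of 279 placed genes that rose, 43 (15.4%) stood in 20 such runs, 2 of them of 3 or more. Of all genes kept, 8.96% were lower and 3.57% higher, so some members have such a neighbour by these shares alone. The share that genes scattered at random would give was not computed. A run of 6 lower genes held CG14265, ng2, ng3, ng1, Pig1 and Sgs4, all but CG14265 known as salivary gland genes, and a run of 5 held Obp56a, Obp56b, Obp56d, Obp56e and Obp56h. Both longest runs had 8 lower genes, one of CG17105, CG17107, CG7299, CG7296, CG7294, CG17108, CG7300 and CG6415, the other of CG34279, CG42822, CG5866, CG33333, CG42834, CG14332, cysu and the eclosion hormone gene Eh. Shorter runs of 5 were CG18581, CG12310, CG13461, CG18649 and CG13460, and Pde6, Jig, CG8087, CG14852 and CG31313. The longest higher run had 4 genes, upd2, upd1, CG6023 (1.60 and 1.68) and CrebB, and was picked out after its values were seen.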

How the data were processed

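The authors deposited 1 table of values per probe set for 5 arrays of biotin-labelled total RNA, and all 5 value columns belong to a sample. The deposited values are read as log2 expression from their range (3.32 to 14.9), because the steps behind them (background correction, normalization, probe summary) were not given in the sources used here. The platform annotation names 1 gene for 13647 of the 18952 probe sets and several for 402, 183 are controls and 4720 stayed unnamed. Symbols were updated through the Release 6 gene table, which held 13544 of them. Array medians were up to 0.153 apart, above a limit of 0.1, so the arrays were quantile normalized, which hides a shift of most genes in 1 direction. The probe set with the highest mean stood for a gene (1094 genes had several), and a gene was kept when its brightest array was at or above the 40th percentile of gene values, 6.36.

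With 1 array per group no test, error or p-value was computed, and the number of arrays limits the precision. Named genes are the 15 highest and 15 lowest by the smaller difference, the 5 on each side that were dim, up to 4 from each end of a list (every gene of lists of up to 12), the 5 most different each way between the mutants, the label genes, those at the threshold and the longest runs. The members and the 71 lists were chosen with earlier results of these data known. Alternatives are given in the closing section. The counting code was run on simulated data to which changes well past the 2-fold limit had been added. This checked that the code works and cannot tell whether the counts in these arrays are right. Python 3.11.15, NumPy 2.4.6, pandas 2.3.3 and matplotlib 3.10.9 were used.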

Additional observations from a re-analysis of the deposited data

Results flagged for a closer look

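Control probe sets at the ends of 3 housekeeping transcripts, which no comparison used, set the Ras array apart from the others. In the values as deposited the 3′ minus 5′ difference averaged 0.91 in Sras mutant 1 and 0.88 in Sras mutant 2, against 1.40 in Ras, with 0.88 in the scrib mutant and 1.00 in WT control. The actin probe sets differed by 0.90 in Sras mutant 1 and 0.72 in Sras mutant 2, against 1.52 in Ras, those of GAPDH by 1.06 and 1.05 in Sras mutant 1 and Sras mutant 2, against 1.37 in Ras, and those of eIF-4a by 0.77 and 0.87, against 1.30 in Ras. Ras was the highest array for each transcript, and since every difference of the Sras mutants uses this array, its part in the results was not tested.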

How the results depend on the processing

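With 280 higher and 703 lower genes as the values reported, counts stayed within 1.5 times of these in the values as deposited (269 and 753), with arrays centred on their medians (311 and 706), with probe sets of a gene averaged (269 and 675), with no filter on dim genes (286 and 737), with the mean of both mutants past 2-fold (349 and 770), with WT control as the baseline (400 and 769), and, an alternative chosen after seeing the data, with 2-fold required from both Ras and WT control (247 and 603). They moved further with identity centring (83 and 1261), with a mean at or above the 50th percentile (166 and 327, fewer genes tested), and with a threshold of 3-fold (82 and 405). At 1.5-fold 886 genes were higher and 1033 lower. Of the values for single named genes 368 moved by less than the spread between the Sras mutant arrays and 182 by more, and of the list medians 528 and 172. None of these values changed sign for a gene past 2-fold, and the cause of the shifts with identity centring was not tested. No paired analysis was possible because each group has 1 array and the labels share no replicate numbers. The limits are 1 array per group and 1 Ras array common to both mutants. Levels of markers of other tissues also differed between Ras and the Sras mutants. Of the 703 lower genes, 327 had levels near background.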

Other observations

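Some genes passed 2-fold in 1 Sras mutant alone and so were no members, and 2 of them, picked out after their values were seen, stood far apart between the mutants. Muc11A, a mucin gene, read 8.63 in Sras mutant 1 and 4.97 in Sras mutant 2, against 4.71 in Ras, 5.34 in the scrib mutant and 4.67 in WT control. CG10154 read 9.90 in Sras mutant 1 and 7.96 in Sras mutant 2, against 7.93 in Ras and 7.80 in WT control. For both genes Sras mutant 1 was the only high array of the 5, and with 1 array per group no spread can be set beside it.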
